A study of Mus musculus with 2 samples.

Results

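Interferon-responding fibroblasts were taken as the cells in which both Pdgfra and Dcn, a receptor and a proteoglycan that mark fibroblasts, and at least 4 of the 5 interferon-induced genes Ifit1, Ifit3, Iigp1, Gbp5 and Trim69 had a unique molecular identifier (UMI). The rule was met by 544 of 14300 cells, 427 of 7308 in an adult library and 117 of 6992 in an aged library. The cells were sorted by flow cytometry from the superficial cervical lymphatic vessels that drain into the submandibular lymph nodes, and droplet libraries were made from them. Both libraries came from FVB/N mice of the Prox1-GFP genotype, in which a Prox1 reporter transgene labels lymphatic endothelium. The adult library pooled 6 mice aged 12 weeks and the aged library pooled 6 mice aged 93 weeks, with no treatment named in the labels. Each age is thus 1 sample, the cells carry no mark of their mouse, and age and library cannot be told apart. No test was made, and the intervals given are 95% intervals that cover counting error only.

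Interferons are secreted by cells that sense viral or other foreign nucleic acid, and bind receptors that nearly all cells carry. Type I interferons (interferon alpha and beta) signal through Ifnar1 and Ifnar2, which leads a complex of transcription factors, Stat2 and Irf9 among them, to the interferon-stimulated response element (ISRE). Type II interferon (interferon gamma) signals through Ifngr1 and Ifngr2 to genes that carry the gamma-activated site (GAS). The genes that these pathways switch on encode antiviral proteins, guanylate-binding and immunity-related GTPases, the machinery of antigen presentation and chemokines that attract T cells, and many of them answer to both types of interferon.

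The aged table also held cells under 6977 of the 7308 adult barcodes (95.5%). Gene levels summed over these barcodes had a correlation of 0.990 between the tables, against 0.167 with rows shifted by 1, which checks the row order. The cells of the aged table under these barcodes, called copies here, had a median of 0.506 times the UMIs of the adult cell. Shared barcodes were counted once, as adult. Whether each copy has the gene profile of its adult cell was not tested. All but 1 of the 427 adult interferon-responding fibroblasts had such a copy, and 196 of the 426 met the rule in both tables. With shared barcodes left out of both libraries, 1 of the adult fibroblasts that remained met the rule (0.775%) and 128 did not. The adult interferon-responding values below thus rest, but for that 1 cell, on barcodes that both tables hold. The interferon-responding fibroblasts had a median of 14481 UMIs per cell in the adult and 14650 in the aged library, against 13360.5 and 12533 in the other fibroblasts, the cells with Pdgfra and Dcn but fewer than 4 of the rule genes (5174 adult, 5543 aged). Of the 8 fibroblast markers examined, Pdgfra and Dcn were required by the rule in both classes of cells. The others (Col1a1, Col1a2, Col3a1, Lum, Dpt and Pdgfrb) were also present in the interferon-responding cells of both libraries. Levels are given in CPM (a gene's summed UMIs scaled to the same total in every class). All 8 markers summed to 23329 CPM in adult interferon-responding fibroblasts and 22677 CPM in the others. The aged values were 27621 and 28872 CPM. The required Dcn alone gave 15251 and 15172 CPM of the adult sums and 13785 and 14744 CPM of the aged ones.

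The rule genes differ in what lies before their starts, as the following RefSeq sequences (build GRCm38.p6) show for 4 of the 5 and for 3 antiviral or chemokine genes that were high in the same cells. Each sequence is the 250 bases before the gene's start, read 5′ to 3′ on the gene's strand. Capitals mark the ISRE core, searched as GAAA, any 2 bases and GAAA, and the GAS, searched as TTCNNNGAA, on both strands. Overlapping matches run together.
Ifit1, antiviral RNA binding (chr19:34640639-34640888, plus strand): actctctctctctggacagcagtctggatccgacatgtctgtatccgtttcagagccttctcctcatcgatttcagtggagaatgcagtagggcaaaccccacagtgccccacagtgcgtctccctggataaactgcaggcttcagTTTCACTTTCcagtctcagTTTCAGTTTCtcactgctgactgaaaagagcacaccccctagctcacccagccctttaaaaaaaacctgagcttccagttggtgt
Ifit3, antiviral RNA binding (chr19:34583279-34583528, plus strand): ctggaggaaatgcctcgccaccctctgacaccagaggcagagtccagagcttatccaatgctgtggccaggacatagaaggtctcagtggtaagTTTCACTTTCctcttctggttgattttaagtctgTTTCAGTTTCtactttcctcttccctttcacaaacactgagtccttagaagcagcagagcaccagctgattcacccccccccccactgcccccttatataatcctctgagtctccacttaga
Gbp5, guanylate-binding protein (chr3:142496684-142496933, plus strand): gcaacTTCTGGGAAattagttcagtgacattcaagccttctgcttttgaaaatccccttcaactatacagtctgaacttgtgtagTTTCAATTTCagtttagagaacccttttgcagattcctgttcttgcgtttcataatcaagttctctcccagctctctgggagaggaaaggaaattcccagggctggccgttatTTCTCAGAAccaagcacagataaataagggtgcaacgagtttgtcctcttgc
Trim69, ubiquitin ligase (chr2:122160458-122160707, plus strand): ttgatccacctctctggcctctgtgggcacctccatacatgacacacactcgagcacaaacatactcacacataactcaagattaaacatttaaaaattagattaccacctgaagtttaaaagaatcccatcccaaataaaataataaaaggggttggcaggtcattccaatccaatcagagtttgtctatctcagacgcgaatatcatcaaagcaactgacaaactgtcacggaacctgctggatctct
Rsad2, viperin (chr12:26456453-26456702, minus strand): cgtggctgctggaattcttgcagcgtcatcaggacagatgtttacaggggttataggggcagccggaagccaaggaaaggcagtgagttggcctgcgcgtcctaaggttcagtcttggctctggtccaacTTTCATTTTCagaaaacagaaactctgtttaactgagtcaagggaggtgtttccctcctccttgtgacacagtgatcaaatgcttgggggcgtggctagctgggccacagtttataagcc
Isg15, ubiquitin-like modifier (chr4:156200819-156201068, minus strand): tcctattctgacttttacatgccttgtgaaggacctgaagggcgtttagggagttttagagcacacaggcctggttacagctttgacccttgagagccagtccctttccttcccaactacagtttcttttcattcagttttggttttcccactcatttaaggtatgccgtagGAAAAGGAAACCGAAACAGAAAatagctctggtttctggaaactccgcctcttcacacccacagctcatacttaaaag
Cxcl10, T-cell chemokine (chr5:92348890-92349139, minus strand): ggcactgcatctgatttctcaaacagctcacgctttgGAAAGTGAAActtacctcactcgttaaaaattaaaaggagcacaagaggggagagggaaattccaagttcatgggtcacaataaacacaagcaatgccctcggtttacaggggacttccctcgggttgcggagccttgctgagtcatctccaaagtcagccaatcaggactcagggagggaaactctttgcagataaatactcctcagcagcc
Ifit1 and Ifit3 each held 2 ISRE cores, Gbp5 held 1 ISRE core and 2 GAS matches, and neither of the 2 Trim69 promoters in the RefSeq table, of which the first is shown, held either motif. Rsad2 and Cxcl10 each held 1 ISRE core and Isg15 held 3 that overlap. For comparison, the ISRE core was found in 2.98% of all 32851 promoter windows of this length and the GAS in 7.02%. A match describes the letters of the window and is no measure of binding.

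Among the rule genes themselves, which chose the cells and are given as a description, Iigp1 was the most abundant. Iigp1 encodes an immunity-related GTPase that attacks the vacuoles of intracellular pathogens. It stood at 1960 CPM in adult interferon-responding fibroblasts against 333 CPM in the others, and at 1062 against 116 CPM in the aged library. Ifit1 had 645 against 36.6 CPM in the adult and 474 against 22.7 CPM in the aged library. Ifit3 had 200 against 8.37 CPM in the adult library and was higher in the aged one, at 299 against 10.7 CPM. The libraries differed in which rule gene was most often missing. Of the adult cells with exactly 4 rule genes, 129 of 313 lacked Ifit3, 91 lacked Trim69 and 64 lacked Gbp5. Of the aged ones, 51 of 101 lacked Trim69, 27 lacked Gbp5 and 15 lacked Ifit3. Only 1 such cell in each library lacked Iigp1. Trim69, at 257 against 77.0 CPM (adult) and 96.6 against 17.4 CPM (aged), overlaps Patl2 in RefSeq and lies within 20 kb of B2m, and the authors' counting of such neighbours is not known.

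Fibroblasts were found at every number of rule genes. Between 0 and 5 rule genes, the adult library held 1772, 1723, 1109, 570, 313 and 114 fibroblasts, and the aged library held 3213, 1487, 572, 271, 101 and 16. Just outside the cut, the adult cells with exactly 3 rule genes had 202 CPM of Ifit1 and 1130 CPM of Iigp1. Just inside, those with exactly 4 had 626 and 1770 CPM. The corresponding aged values were 215 and 661 CPM outside and 466 and 1055 CPM inside. Cells next to the cut outnumbered the members, with 570 adult and 271 aged cells at exactly 3 rule genes.

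**Figure D1:**
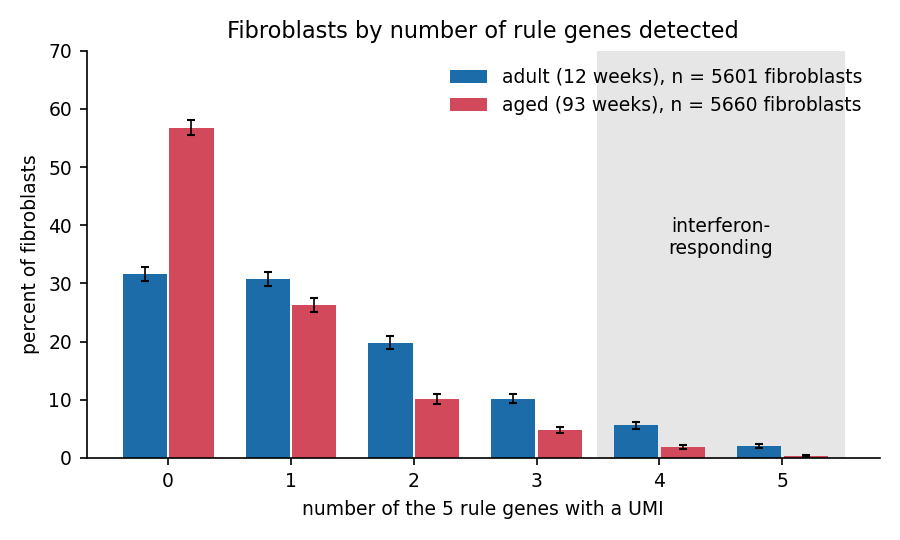
Percent of fibroblasts (cells with Pdgfra and Dcn) by how many of the 5 rule genes had a UMI, in the adult (n = 5601) and aged (n = 5660) library; bars are shares, error bars 95% Clopper-Pearson intervals, and the shaded region holds the interferon-responding cells. Cells with 0 rule genes made up 31.6% of adult and 56.8% of aged fibroblasts, and every step from 1 to 5 was larger in the adult library.

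By this rule, 7.62% (Clopper-Pearson interval 6.94 to 8.35) of adult and 2.07% (1.71 to 2.47) of aged fibroblasts were interferon-responding. Detection depends on depth, so each cell was also thinned to a fixed number of UMIs. Fibroblasts were then called again by Pdgfra and Dcn among the UMIs that remained. The rule was then met at 5000 UMIs by 3.85% (3.29 to 4.46) of 4315 adult fibroblasts and by 0.741% (0.507 to 1.04) of 4319 aged ones. Shallower cells of all types were left out, 617 adult and 624 aged. The intervals of the libraries overlapped neither before nor after thinning. Among the few adult fibroblasts outside the shared barcodes, 1 met the rule and 128 did not (0.775%). These are too few cells to place that share above or below the aged one. A cell was called female where Xist had a UMI and none of the Y-linked genes Ddx3y, Eif2s3y, Kdm5d and Uty had one, and male in the opposite case. In the adult library 10.5% (9.40 to 11.7) of female and 3.96% (3.19 to 4.86) of male fibroblasts were interferon-responding. In the aged library the shares were 2.72% (2.06 to 3.51) and 1.5% (1.09 to 2.0). Thinned to 5000 UMIs, the adult shares were 5.54% for female and 1.84% for male cells, and the aged shares were 0.965% (0.541 to 1.59) and 0.565% (0.301 to 0.965), whose intervals overlap. Female cells thus made up 76.8% of the adult interferon-responding fibroblasts with a call, against 53.7% of the other fibroblasts. The pools' numbers of female and male mice are not given in the labels, and which mice gave the cells was not recorded, so a difference between sexes and one between mice cannot be told apart. Cells with UMIs of both Xist and a Y-linked gene made up 5.85% of adult and 8.55% of aged interferon-responding fibroblasts, against 3.15% and 3.41% of the others.

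Genes beyond the rule were compared between interferon-responding and other fibroblasts of the same library, as log2 ratios of CPM after adding 1 CPM. Because the cells were chosen by related genes, these ratios describe the class. At least 2-fold higher were 216 of 9270 measured genes (2.33%) in the adult and 186 of 9001 (2.07%) in the aged library. At least 2-fold lower were 87 (0.939%) and 40 (0.444%). Of the genes measured in both libraries, 102 were 2-fold higher in each, 63.0% of the adult and 61.8% of the aged set. Only 47 of these 102 were on any of the gene lists examined. The lower genes overlapped less, with 4 shared, which were 5.06% of the adult and 12.5% of the aged set.

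Antiviral effectors, the proteins that block viral replication inside the cell, included the gene with the highest ratio in both libraries outside the rule genes. Of the list's measured members, 23 of 30 were at least 1.5-fold higher in the adult interferon-responding fibroblasts (5.98% of all measured genes were) and 25 of 29 in the aged ones (6% of all measured genes). None was lower, where 3.72% and 2.94% of all measured genes were. The medians were 1.37 and 1.99 on the log2 scale, where all measured genes had medians of -0.03 and -0.01. Rsad2, whose product viperin makes a chain-terminating nucleotide, was that gene. It stood at 45.3 against 3.12 CPM in the adult library (log2 3.49) and at 86.5 against 1.92 CPM in the aged one (4.91). Its level came from a minority of cells, since 18.7% of adult and 22.2% of aged interferon-responding fibroblasts had a UMI of it. Isg15, a ubiquitin-like protein that is attached to other proteins, was far more common. It was at 568 against 89.2 CPM (2.66) in the adult and at 754 against 86.9 CPM (3.1) in the aged library, with a UMI in 87.8% and 92.3% of cells. Mx2, a dynamin-like gene that RefSeq lists as a transcribed pseudogene, had log2 ratios of 2.95 and 3.22. Herc6, a ligase of the Isg15 pathway, had 2.42 and 2.59. Ifit3b, a near-identical relative of the rule gene Ifit3, had 3.26 and 3.36, and reads of the pair may have been assigned to either.

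Not every antiviral gene followed. Ifitm2, which hinders viral entry, was at 951 against 870 CPM in the adult library (log2 0.13) and at 1032 against 923 CPM in the aged library (0.16). Isg20, an exonuclease, had ratios of 0.14 and 0.30. Ifi27l2a differed between the libraries, at 498 against 476 CPM (0.06) in the adult and 929 against 468 CPM (0.99) in the aged one. Cmpk2, the neighbour of Rsad2 that supplies its substrate, had 0.81 in the adult and 2.37 in the aged library.

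Every interferon-induced GTPase of the list was higher in each library in which it was measured. These proteins coat and break open the compartments of intracellular microbes. All 15 measured members were at least 1.5-fold higher in the adult library and all 12 in the aged library, with medians of 2.09 and 2.33. The values ran from 0.98 (Gbp9) to 2.40 (Tgtp2) in the adult and from 1.55 (Gbp2) to 3.11 (Gbp6) in the aged library. Gbp2b, the most abundant of them, was at 471 against 97.7 CPM (2.26) and at 255 against 63.1 CPM (1.99). Irgm1, which restrains the other immunity-related GTPases, was at 118 against 28.2 CPM (2.02) and at 74.2 against 14.3 CPM (2.29). A gene was measured if enough cells of either class had a UMI, so some members entered through the interferon-responding cells alone. For those, the filter favoured a higher value. Gbp4 was one, detected in 21.5% against 5.95% of adult and 17.1% against 2.16% of aged cells. Irgm1 passed in both classes, at 65.1% against 23.8% and 57.3% against 13.0%. The counts of 15 and 12 hold both kinds. Gm4951 and F830016B08Rik, immunity-related GTPase genes outside the list, had 2.79 and 3.66, and 2.39 and 2.52. Members of these families resemble each other closely, and the counting may have split reads among them.

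Antigen presentation by class I molecules, which show peptides to CD8 T cells, was higher by smaller factors. In the adult library 11 of 20 members were at least 1.5-fold higher and in the aged library 8 of 20, with medians of 0.60 and 0.56. Nlrc5, the transactivator of class I genes, was at 58.2 against 20.01 CPM (1.49) in the adult and at 12.4 against 2.91 CPM (1.77) in the aged library. Tap1, a peptide transporter, had 1.12 and 2.0. The abundant genes differed less, as B2m, the light chain of the class I complex, had 0.44 and 0.45. H2-D1, a heavy chain, had 0.48 and 0.28. Class II genes, which are mostly restricted to professional antigen-presenting cells, were low. H2-Ab1 was at 28.6 against 13.8 CPM in the adult and at 4.5 against 0.931 CPM in the aged library, where no class II gene passed the filter for low values.

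Among the genes that carry the interferon signal, the factors were higher and the receptors were not. Irf7, which amplifies type I interferon responses, was at 75.7 against 25.8 CPM (1.52) in the adult and at 149 against 26.4 CPM (2.46) in the aged library. Stat2, a factor of the type I response, had 1.13 and 1.84, and its partner Irf9 had 0.81 and 1.25. In all, 7 of 12 measured members of the signalling list were at least 1.5-fold higher in the adult and 6 of 11 in the aged library. None of the 5 measured receptor genes differed by 1.5-fold in either library. Ifnar1 was at 25.3 against 24.9 CPM in the adult and at 25.3 against 22.9 CPM in the aged library, and Ifngr1 at 167 against 151 and at 146 against 135 CPM. Of the interferons, only Ifnb1 and Ifng were in the tables. The adult interferon-responding fibroblasts held no UMI of either, and the aged ones held 2 of Ifnb1 and 3 of Ifng.

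Sensors of foreign nucleic acid, which start interferon production, were higher in 10 of 11 measured members in the adult and 12 of 13 in the aged library, with medians of 1.38 in both. Ifih1 (MDA5) was at 141 against 36.8 CPM (1.91) and at 127 against 27.8 CPM (2.15). Rigi (RIG-I) had 1.40 and 1.92, and Cgas, the DNA sensor, 1.38 and 0.91. Sting1, the adaptor of Cgas, stayed under the threshold with 0.45 and 0.43. Some genes that limit the response were also higher. Of the feedback and checkpoint list, 4 of 7 measured members were at least 1.5-fold higher in each library. Pias1 (-0.35 in the adult and -0.24 in the aged library), Ptpn2 (-0.06 and -0.55) and Socs2 (-0.28 and -0.16) were not. Cd274, which encodes the checkpoint ligand PD-L1 and overlaps Plgrkt in RefSeq, was at 54.1 against 9.67 CPM (2.37) in the adult and at 17.4 against 7.03 CPM (1.20) in the aged library. Socs1, an inhibitor of Jak kinases, had 1.16 and 0.88. Usp18 of the antiviral list, which removes Isg15 and blocks the type I receptor, had 1.26 and 2.21.

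Chemokines differed from gene to gene. Cxcl10, which attracts activated T cells through Cxcr3, was at 560 against 85.5 CPM (2.70) in the adult and at 319 against 58.5 CPM (2.43) in the aged library. Cxcl9, which binds the same receptor, was at 85.9 against 9.20 CPM (3.09) in the adult library. In the aged library it was at 32.6 against 1.18 CPM, in too few cells to pass the filter. The neutrophil and monocyte chemokines were mixed. Ccl8 was at 222 against 133 CPM (0.74) in the adult and at 163 against 114 CPM (0.51) in the aged library. Ccl7 had 0.09 in both. Cxcl1 had ratios of -0.21 and 0.01 and Ccl2 -0.44 and 0.11. Cxcl2 was lower in the adult library, at 129 against 239 CPM (-0.89), and had -0.36 in the aged one. Over the list of inflammatory chemokines and cytokines, 5 of 14 were at least 1.5-fold higher and 1 was lower in the adult library, and 3 of 14 were higher in the aged library. Targets of NF-kB, the transcription factor of inflammatory signals, numbered 3 of 11 and 2 of 11 higher. Nfkbia, a prompt NF-kB target, had -0.14 and 0.11. Of the cell death genes, 5 of 10 and 5 of 9 were higher, among them Mlkl, the executor of necroptosis, with 1.16 and 1.43, and Casp4, which senses lipopolysaccharide in the cytosol, with 1.26 and 1.29. Immediate early genes, which respond to handling of cells as well as to growth signals, were near balance. One of 17 was higher and 1 lower in the adult library, and 1 was higher in the aged library.

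**Figure D2:**
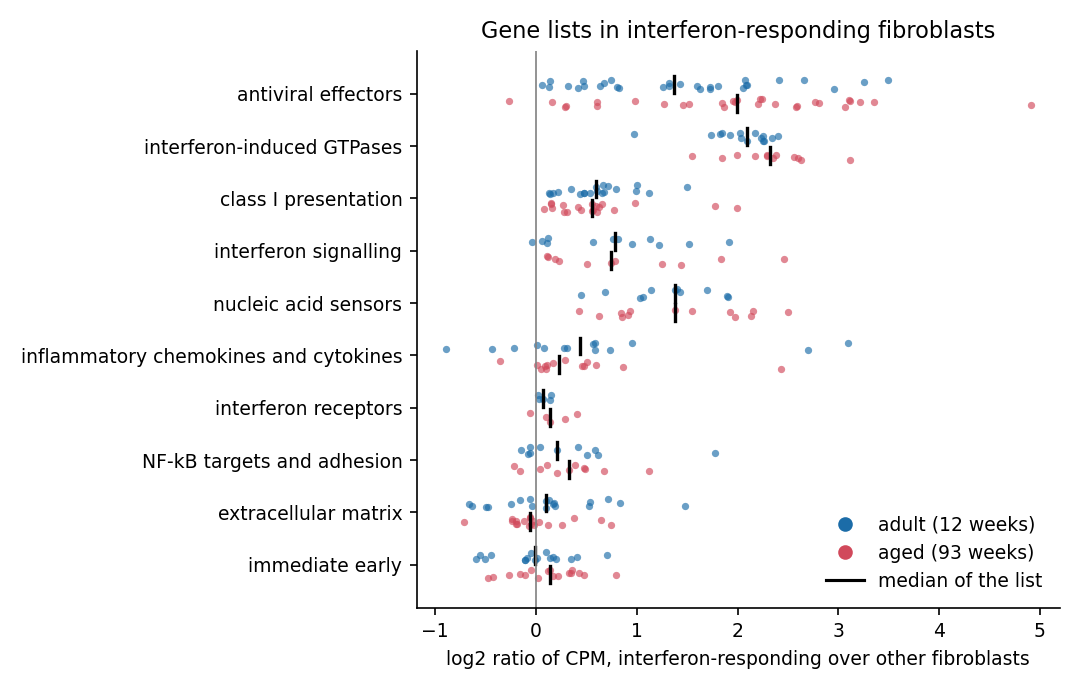
Log2 ratio of CPM of interferon-responding over other fibroblasts (1 CPM added), for the measured genes of 10 lists in the adult and aged library; each point is a gene and each black line the median of its list. GTPases and antiviral effectors lie farthest to the right (medians of 2.09 and 1.37 in the adult and 2.33 and 1.99 in the aged library), and receptors, extracellular matrix and immediate early genes lie around 0.

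Some of the highest genes outside the lists have neighbours or overlaps that make their assignment uncertain. Ptk6 and Srms, adjacent genes of related kinases, had 2.80 and 2.63 in the adult and 2.17 and 2.05 in the aged library, and Srms lies within 20 kb of the interferon-induced gene Helz2. A930037H05Rik, a long noncoding RNA with 2.29 and 1.79, overlaps Rnf213. Or2v1, an olfactory receptor gene with 3.07 and 3.01, had no entry in the RefSeq table.

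Fewer genes were lower in the interferon-responding fibroblasts. Prg4, which encodes the lubricant lubricin, was at 43.1 against 219 CPM (-2.32) in the adult and at 41.6 against 88.8 CPM (-1.08) in the aged library. Edn1, the vasoconstrictor endothelin, had -1.76 and -0.95, and Fosl1, a subunit of AP-1, -1.60 and -0.77. Sv2c, Chst1, Fam167a, Wnt10b, Adgrg6, Gng4 and Stmn4 were also lower in both, with adult ratios from -2.14 (Sv2c) to -1.26 (Stmn4) and aged ratios from -1.12 (Stmn4) to -0.65 (Adgrg6). The 5 genes of Pi16-positive adventitial fibroblasts, a stem-like population, were at least 1.5-fold lower in 5 of 5 cases in the adult library and in 0 of 5 in the aged library. Pi16 itself was at 812 against 1934 CPM (-1.25) in the adult and at 1573 against 2069 CPM (-0.40) in the aged library. Extracellular matrix genes showed no common direction. In the adult library 3 of 19 were higher and 2 lower, and in the aged library 2 were higher and 1 lower. Col1a1, the main fibrillar collagen, had -0.04 and -0.07. Col15a1, a basement membrane collagen, was at 123 against 43.3 CPM (1.48) in the adult and at 93.3 against 59.4 CPM (0.64) in the aged library.

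The lists also changed in steps below the cut. In adult fibroblasts with 0 to 5 rule genes, the summed GTPases (rule genes left out) were at 220, 349, 572, 1008, 1657 and 2329 CPM. In aged fibroblasts they were at 166, 274, 433, 712, 1182 and 1162 CPM, where the last value comes from 16 cells. Antiviral effectors went from 4203 to 8281 CPM in the adult and from 3924 to 9808 CPM in the aged library (8344 CPM at 4 rule genes). Each step of these series up to 4 rule genes was an increase in both libraries. The extracellular matrix list stayed between 13862 and 15494 CPM in adult and between 24193 and 27339 CPM in aged cells. Within the class, cells differed widely. The middle 50% of adult interferon-responding fibroblasts held between 8.29 and 25.2 GTPase UMIs per 10000, and 49.9% of them lay above the 95th percentile of the other fibroblasts. In the aged library 59.0% lay above it.

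**Figure D3:**
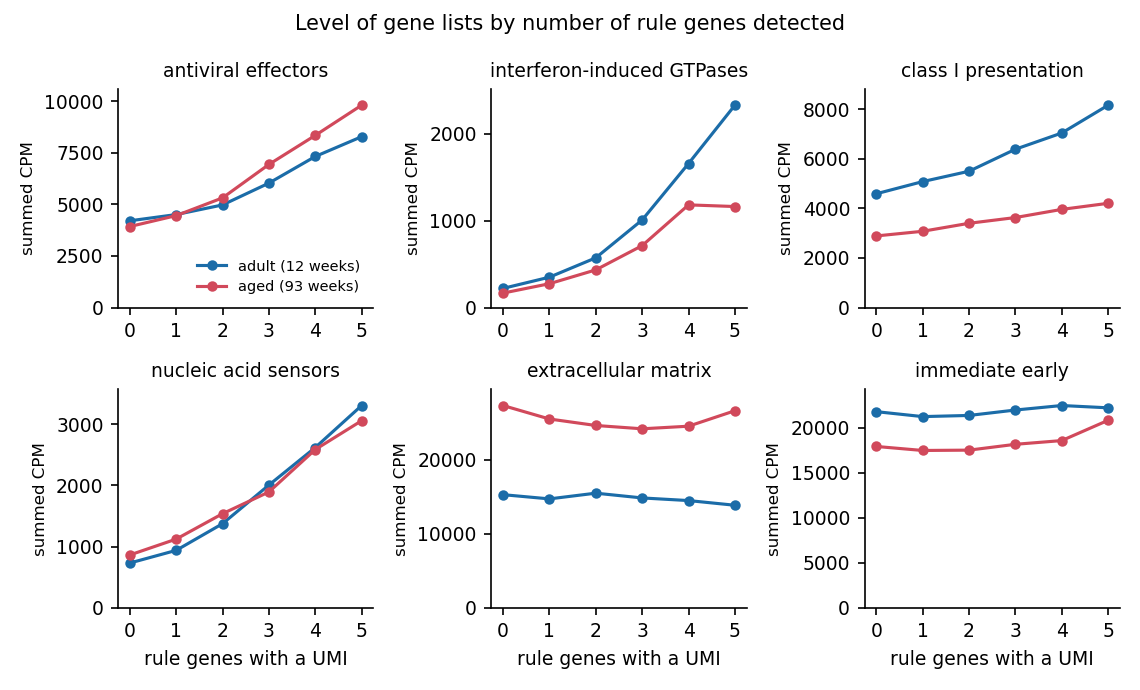
Summed CPM of 6 gene lists (rule genes left out) in fibroblasts by number of rule genes with a UMI, in the adult and aged library; each point sums all cells of that number, the last aged point holds 16 cells, and each panel has its own scale from 0. Antiviral effectors, GTPases, class I genes and sensors increase with the number of rule genes, from 220 to 2329 CPM for GTPases in the adult library, while extracellular matrix genes stay between 13862 and 15494 CPM there.

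To see how the class was spread over fibroblasts, all 11261 fibroblasts were clustered without the rule genes and interferon lists, which gave 19 clusters. Genes on no list could still enter the clustering, and 55 of the 102 genes 2-fold higher in both libraries were such genes. How far these shaped the clusters and the neighbour shares below was not tested. In the adult library, interferon-responding cells were concentrated in 4 clusters. They made up 19.7% (16.3 to 23.4) of cluster 6, led by Enpp2 (autotaxin), Car3 and Cxcl14, and 19.1% (14.1 to 24.9) of cluster 9, with Rxfp1 (a relaxin receptor) and Greb1 among its leading genes. They made up 18.6% (11.6 to 27.6) of cluster 10, led by Gfra1, Asb4 and Lrrc4c, and 17.4% (14.5 to 20.6) of cluster 4, led by Pde4c and Mast1, with Tmem176a and Apoe also among its leading genes. The share was 2.09% in cluster 2, led by Myoc, 1.37% in cluster 3, led by Krt25, 1.62% in cluster 8, led by Ctla2a, and 2.37% in cluster 14, led by Prg4. In the aged library cluster 6 again had the highest share among clusters of at least 50 cells, at 7.11% (4.81 to 10.0). The shares of clusters 9 and 10 were 2.13% and 1.53% there, near the aged library's 2.07%. In cluster 7, led by Wfdc18 and Pip, 35 of 432 adult cells but 0 of 437 aged ones were interferon-responding (aged interval 0 to 0.841%). Clusters 2, 3 and 5 had like shares at both ages, with overlapping intervals. Adult interferon-responding cells had other such cells as 26.5% of their 15 nearest neighbours, against 5.89% for other fibroblasts, and aged ones 4.96% against 1.48%.

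**Figure D4:**
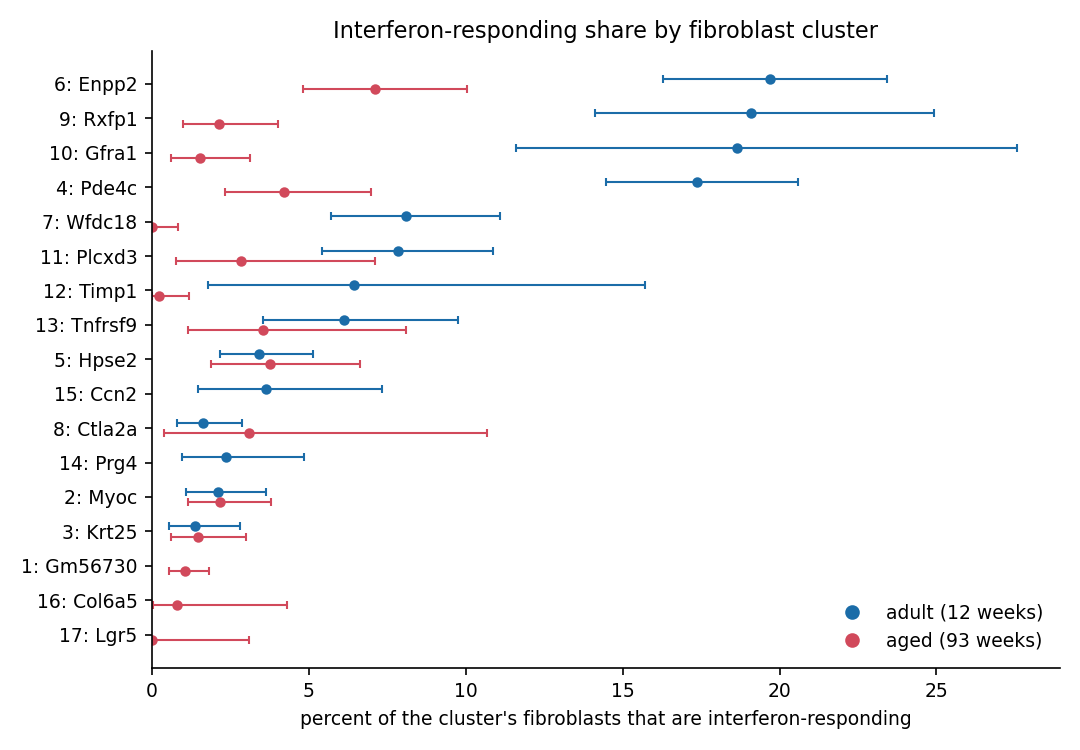
Percent of each fibroblast cluster's cells that were interferon-responding, in the adult and aged library, with 95% Clopper-Pearson intervals; clusters (number and leading gene) were made without the rule genes and the listed interferon genes, and a library's point is drawn where it holds at least 50 cells of the cluster. Clusters 6, 9, 10 and 4 stand between 17.4% and 19.7% in the adult library, and cluster 6 is highest in the aged library at 7.11%.

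Some genes that lead those clusters, such as Enpp2, Tmem176a and Apoe, were higher in the class as well. With the other fibroblasts weighted to the cluster mix of the interferon-responding ones, a comparison chosen after the data were seen, 67 of the 102 genes remained 2-fold higher in both libraries and 35 did not. Enpp2 went from 1.58 to 0.62 in the adult and from 1.46 to 0.25 in the aged library. Ccl19, a chemokine of reticular stroma, went from 1.93 to 0.97 and from 1.40 to 0.69, and Vcam1, an adhesion molecule, from 1.78 to 0.91 and from 1.13 to 0.65. Cxcl12, a homeostatic chemokine, went from 1.35 to 0.59 and from 1.24 to 0.81. Also among the 35 were Stat2 of the signalling list, the interferon-induced Helz2, and Mlkl and Casp4 of the cell death list. The ratios of Rsad2 (3.71 and 4.94), Igtp (2.12 and 2.26) and Irf7 (1.51 and 2.48) were nearly as before. The number of genes 2-fold lower in the adult library was 4 under this weighting, against 87, and Pi16 went from -1.25 to -0.42. Adult female cells had the higher share within cluster 4 (23.8% against 9.13% of male cells) and within cluster 6 (22.9% against 14.8%).

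The summed markers of every other cell type were far below those of fibroblasts, and some markers were higher in the interferon-responding cells. Ptprc, the general leukocyte marker, had no UMI in either library's interferon-responding fibroblasts, and the dendritic cell markers examined were all at 0. Pecam1, an endothelial adhesion molecule, was at 73.3 against 31.5 CPM in the adult and at 39.9 against 14.8 CPM in the aged library. Prox1, at 4.88 against 13.4 CPM and 5.06 against 8.09 CPM, was lower, and Cdh5 was at 1.68 against 1.52 CPM in the adult and at 0 in the aged interferon-responding cells. The summed smooth muscle markers were at 108 against 56.3 CPM and at 105 against 29.9 CPM. Acta2 was detected in 7.03% of adult and 3.42% of aged interferon-responding cells, against 6.34% and 3.18% of the others. Myh11 was detected in 3.51% and 1.71%, against 2.84% and 1.34%. The UMIs of both genes thus came from a small share of the cells. Des was detected in 6.32% and 7.69%, against 3.09% and 1.73%. The summed pericyte markers were at 247 against 159 CPM and at 207 against 176 CPM. Abcc9, the largest of them, was at 153 against 101 CPM in the adult library and at 122.5 CPM in both aged classes. Rgs5 was at 7.92 against 2.68 and 30.9 against 1.99 CPM. Kcnj8 was higher in the adult (61.0 against 42.8 CPM) but lower in the aged library (28.7 against 41.9 CPM). Cd3e, a T-cell receptor subunit, was at 103 against 60.9 CPM in the adult library, whereas all other T-cell and natural killer markers together gave under 1 CPM. A UMI of Ptprc, Pecam1, Prox1, Myh11 or Rgs5 was found in 42.9% of adult and 27.4% of aged interferon-responding fibroblasts, against 24.0% and 14.7% of the others. Cells that had one were then left out of the interferon-responding fibroblasts, of which 244 adult and 85 aged remained, but not out of the others. The 6 interferon lists (antiviral effectors, GTPases, class I, signalling, sensors, and chemokines and cytokines) then held 74 genes at least 1.5-fold higher in the adult library. They held 66 in the aged library. With all cells the counts were 71 of 102 and 66 of 99 measured genes.

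Between the libraries, the interferon-responding fibroblasts differed by gene group. At least 2-fold higher in the aged cells were 122 of 9473 genes (1.29%) and at least 2-fold lower 250 (2.64%), and at the 1.5-fold limit 5.26% were higher and 8.54% lower. In the other fibroblasts 0.536% were 2-fold higher and 0.729% lower, and 1.89% and 3.46% at the 1.5-fold limit, over a class of many more cells. Antiviral effectors had a median log2 ratio of aged over adult of 0.13, with 6 of 31 members 1.5-fold higher and 2 lower. Among the other fibroblasts the median of the list was -0.25. Rsad2 was at 86.5 CPM in aged and 45.3 CPM in adult cells (log2 0.92, interval without the added CPM 0.64 to 1.22). Dhx58, a sensor of the RIG-I family, was at 23.6 against 7.77 CPM (1.49, 0.98 to 2.22), and Irf7 had 0.97 (0.76 to 1.20). GTPases were lower in the aged cells, with a median of -0.66 and 9 of 15 members 1.5-fold lower. In the other fibroblasts their median was -0.86. Gbp2b had -0.88 (-1.03 to -0.74) and Igtp -0.89 (-1.23 to -0.59). Class I genes had a median of -0.67, with 12 of 20 lower, and -0.72 in the other fibroblasts. B2m had -1.06 in the interferon-responding and -1.08 in the other fibroblasts, and Nlrc5 had -2.15 and -2.43. Single class I genes departed from this. Tap1, a subunit of the peptide transporter, had -0.13 (-0.47 to 0.19) in the interferon-responding and -1.01 (-1.18 to -0.95) in the other fibroblasts, and H2-Q4 had -0.62 (-0.86 to -0.41) and -0.18 (-0.24 to -0.13). The medians of the antiviral effectors had opposite signs in the 2 classes, a difference that was not tested. The interferon-responding cells of each library were chosen by rule genes related to these lists, and the rule was met through partly different genes. Ifit3 was detected in 69.8% of the adult and 87.2% of the aged cells, and Trim69 in 78.7% and 56.4%. Whether this choice shaped the ratios between the libraries was not tested.

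By sex, the values of aged over adult cells were as follows for the groups above, with no test of the difference. In female cells alone the GTPase median was -0.68 and in male cells -0.25, where 3 of 14 members were 1.5-fold lower. Gbp2b had -1.40 (-1.64 to -1.18) in the female cells but -0.16 (-0.39 to 0.07) in the male ones. Isg15 had 0.79 (0.68 to 0.91) in the female cells but -0.06 (-0.23 to 0.11) in the male ones. The class I medians were -0.67 and -0.68. These values rest on 56 female and 44 male aged cells, against 291 and 88 adult ones.

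Outside the interferon lists, matrix genes were higher in the aged cells, with 8 of 19 at least 1.5-fold higher and 1 lower. The other fibroblasts had 9 of 19 higher. Sparc, a collagen-binding protein, had 1.53 (1.49 to 1.57) and 1.48 in the other fibroblasts, and Col1a1 had 1.26 and 1.28. The 5 Pi16 adventitial genes were all at least 1.5-fold higher in the aged interferon-responding cells (median 0.95) and none was in the other fibroblasts (-0.03). The largest ratios belonged to low genes. Nptx2, a secreted pentraxin, was at 36.5 CPM in aged and 6.40 CPM in adult cells, Rgs6, a regulator of G-protein signalling, at 57.9 against 11.6 CPM, and Ecrg4, a secreted peptide precursor, at 38.8 against 9.45 CPM. Cthrc1, a secreted matrix-associated glycoprotein, was at 21.9 against 5.33 CPM. Mlana was at 5.62 CPM in aged and 59.6 CPM in adult cells, and Nxph1, a neurexin ligand, at 11.8 against 75.4 CPM. Batf2, an interferon-induced transcription factor, had 3 UMIs in aged and 91 in adult cells (log2 -2.47, interval without the added CPM -5.34 to -1.45). H2-Aa, a class II chain, had 94 UMIs (14.3 CPM) in adult and 0 in aged cells, at least 8.50-fold lower against a floor of 3 counts over the aged class. Dcpp1 and Dcpp2, secreted proteins of the salivary gland, had 61 and 40 UMIs in aged cells and none in adult cells, and were higher still in the other aged fibroblasts at 613 and 450 CPM. The copies of adult cells in the aged table hold UMIs of both genes, so no fold is given.

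**Figure D5:**
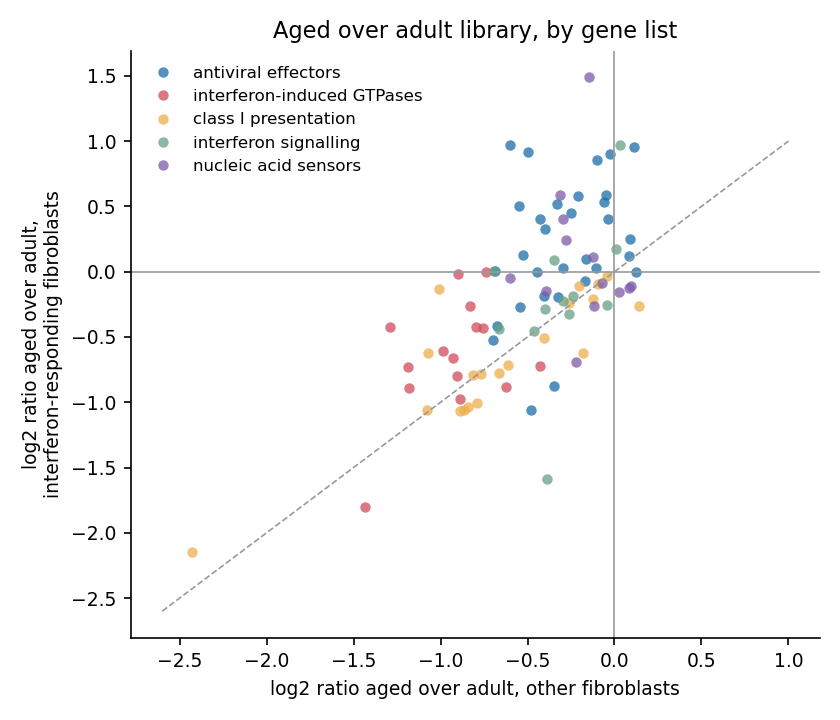
Log2 ratio of CPM of the aged over the adult library for genes of 5 interferon lists, in interferon-responding fibroblasts (vertical) against other fibroblasts (horizontal), with 1 CPM added; each point is a gene measured in the interferon-responding cells and the dashed line marks equal ratios. Class I genes lie near the line (medians of -0.67 and -0.72), and most antiviral effectors lie above it (medians of 0.13 and -0.25).

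Across the promoters of the 102 genes that were 2-fold higher in both libraries, 72 genes matched the RefSeq table, with 102 promoter windows among them. The ISRE core was in 29 of these windows (28.4%), against 2.72% of the windows of all genes measured in the adult comparison. The GAS was in 7.84%, against 5.74%. Among high genes without either motif in the window were Herc6, Cd274 and Irf7. The genes with the ISRE core included Rsad2, Isg15, Cxcl10, Ifit3b and Gbp2b, and 3 of the 4 rule genes that matched.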

How the data were processed

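Droplet single-cell RNA was measured in 1 pooled library per age. The tables were made with Seurat 5.0.3, and the builds GRCm39 and mm10 are named without a role, per the submitters' processing notes. The aligner is, like the counting step and cell filters, not given in the sources used here. Values in the deposited tables are the natural log of 1 plus the UMIs of a gene per 10000 UMIs of the cell, as found from the values. Dividing the un-logged values by the smallest of each cell gave whole numbers for 100% of values within 0.01, so UMIs were recovered. The aged table numbers its rows, which were named by the adult row order, and its barcodes also in the adult table were dropped. UMIs numbered 90875406 in the adult and 128940414 in the aged table. No doublet caller was run.

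UMIs were summed over the cells of a class and given as CPM. Genes were measured where 10% of either class's cells had a UMI and 20 UMIs were held or expected in the class. Intervals of ratios are exact conditional binomial ones, without the added 1 CPM, so a low gene's ratio can lie outside its interval. They were checked only on counts simulated with counting error alone, so the check cannot show how well they cover in real cells. Fibroblasts were clustered on 2000 variable genes and 30 components with 15 neighbours (scikit-learn 1.9.0) using Leiden clustering (igraph 0.11.9, resolution 1), with numpy 2.4.6 and scipy 1.17.1. Promoters are those of RefSeq. The genes named outside the lists were the 15 highest and 10 lowest ratios in the adult library that were 1.5-fold changed the same way in the aged one, and the 8 highest and 8 lowest between ages. The members, lists and rules were chosen with earlier results of these data known. Alternatives varied the rule, the compared cells, the added CPM, the filter, sex, shared barcodes and clustering.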

Additional observations from a re-analysis of the deposited data

How the results depend on the processing

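With 1 pooled library per age, intervals cover counting error and not differences between mice, and low genes are limited by the 117 aged cells. No paired analysis was possible because each age is 1 library. The causes of the following changes were not tested.

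The share of interferon-responding cells moved with the rule. With all 5 rule genes it was 2.04% (adult) and 0.283% (aged), with at least 3 it was 17.8% and 6.86%, in female cells 10.5% and 2.72%, and in male cells 3.96% and 1.5%. It was 0.775% in the adult library without shared barcodes and 3.29% in the aged table as deposited, where 74.1% of members with a call were female. Thinned to 10000 UMIs in place of 5000, it was 6.17% and 1.46%. The adult share was above the aged one under each of these settings except without shared barcodes. There 1 adult cell met the rule, too few to rank against the 2.07% of aged fibroblasts.

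Genes 2-fold higher in adult interferon-responding fibroblasts numbered 418 against fibroblasts with none of the rule genes, 110 with 10 CPM added, 372 without the filter and 102 with the cluster mix, a weighting added after the data were seen. Genes lower there numbered 138, 42, 145 and 4 under these settings, 183 with all 5 rule genes and 17 with at least 3. In the aged library 121 genes were higher with at least 3 rule genes and 104 with 10 CPM added. Lower there were 18 with the table as deposited, 5 with at least 3 rule genes, 7 with 10 CPM added and 64 without the filter. The lower genes numbered 64 without members holding other cells' markers, 69 in female and 131 in male cells.

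Between ages, 12 genes were higher and 7 lower with the aged table as deposited, 46 and 61 with 10 CPM added, 195 and 562 without the filter, 244 and 433 in female and 208 and 512 in male cells. With the table as deposited, which holds copies of adult cells, 6 interferon list genes were 1.5-fold higher and 2 lower in aged cells. The other alternatives run kept this list's counts between 10 and 17 higher and between 22 and 32 lower. At a clustering resolution of 0.5, 1 cluster held 64.9% of adult and 49.6% of aged members. Chst1 reversed in aged female cells (0.029) and Rgs7 between ages in male cells (0.85). All 5 rule genes left 16 aged cells and leaving out shared barcodes left 1 adult cell, so genes were not compared there.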
